A study of Homo sapiens with 2 samples.

Results

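The guidance genes described here encode the ephrins and their Eph receptors, the semaphorins with their plexin and neuropilin receptors, the Slits with their Robo receptors, and the netrins with the receptors DCC, neogenin and UNC5. They were chosen by gene symbol alone, through the Entrez Gene identifiers of the deposited files. Of 70 human genes whose symbol fits, 60 were listed in at least 1 of the 2 libraries, out of 16085 listed genes and loci. There were 58 in each library: 56 in both, EFNA2 and EPHB2 in shCtrl only, and NTN3 and SEMA4A in shZEB1 only. The other 10 (DCC, EPHA1, EPHA7, EPHA8, NTN4, NTN5, SEMA5B, SLIT3, UNC5A and UNC5D) were in neither file, and each is counted as 0 reads.

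Poly(A)-selected RNA was sequenced from 1 library of cells with a control short hairpin (shCtrl) and 1 library of cells with a ZEB1 knockdown (shZEB1). Both were labelled as MDA-MB-231, a human triple-negative breast carcinoma line, and the series asked how ZEB1 in such cells acts on tumour macrophages. Whether either library came from a single clone is not given in the sources used here, nor are the hairpin and its vector. With no replicate in either group there is no test between conditions, no p-value and no spread between cultures behind any difference below.

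These families are best known for steering growing axons, and they also place blood vessels, neural crest cells and epithelial borders. Ephrins are membrane-bound and signal to Eph receptor tyrosine kinases on touching cells. Semaphorins signal through plexins, with neuropilins as co-receptors for most secreted ones, while Slits act on Robo and netrins on DCC, neogenin and UNC5. Most of these receptors act on the actin cytoskeleton through small GTPases.

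The libraries held 8740584 (shCtrl) and 8441491 (shZEB1) assigned reads, and the guidance genes took 0.233% and 0.241% of them. Levels are given as FPKM, reads scaled to gene length and library total, with the number of reads behind a low one. Differences are given mainly as log2((FPKM shZEB1 + 1)/(FPKM shCtrl + 1)), a measure that makes the change of scarce genes look smaller. Read ratios are shZEB1 over shCtrl, scaled by library totals, with a 95% exact binomial interval that covers counting error only. A gene is called higher or lower below where that interval excludes 1, and it meets the size rule where its log2 ratio also reaches 1 or -1. ZEB1 itself, with 46 reads against 15 in the knockdown, had a read ratio of 0.338 (interval 0.175 to 0.616), from FPKM values of 0.88 and 0.31. Its exons overlap ZEB1-AS1.

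The labelled line was not matched by its marker genes. Of 12 melanocyte lineage markers, 11 reached 10 FPKM or more in each library (summed FPKM 1917 in shCtrl and 1433 in shZEB1). Of 12 markers of basal-type breast lines this held for 4, KRT18, CAV1, VIM and MSN, while KRT5 and KRT19 were in neither file. Of the rest, CAV2 was at 7.16 and 7.13, and EGFR, F3, KRT7, KRT14 and KRT17 were at most 1.82. Whether guidance levels move with the lower melanocyte sum was not tested. Of 7 neuron markers only TUBB3 (85.0 and 68.0) and SYP (2.15 and 1.48) reached an FPKM of 1, with DCX and STMN2 in neither file. Of 6 endothelial markers only EGFL7 did (29.2 and 26.0). The 6 fibroblast markers summed to 2.08 and 3.61 and the 6 macrophage markers to 0.58 and 0.11, with PTPRC in neither file. In such bulk samples, fewer cells of a type and less RNA per cell cannot be told apart.

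Of the 60 listed guidance genes, 40 had an FPKM of at least 1 in either library, and none of these 40 met the size rule in either direction. Across all 12274 genes and loci at that level, 2.55% met it (0.937% higher and 1.61% lower). The interval excluded 1 for 21 of the 40, a share of 52.5% beside 49.3% of all genes. Of these, 14 were higher in shZEB1 (27.9% of all genes were) and 7 were lower (21.4% of all genes were). The median log2 ratio of the 40 was 0.01, beside 0.02 over all genes. All 60 listed guidance genes summed to 441.15 FPKM in shCtrl and 440.29 in shZEB1. A log2 ratio of at least 0.5 in size was reached by 3 of the 40, SEMA6B, SEMA6C and SEMA7A, all higher, beside 15.8% of all genes. With 0.1 in place of 1 added to each FPKM, others passed it in both directions. Among them were EFNB2 (-0.80) and SEMA3A (-0.57), lower, and EPHB3 (0.71), UNC5C (0.65), EFNA5 (0.61) and SEMA3C (0.51), higher. The share of all genes past 0.5 was not computed at that setting. As a set the guidance genes were near the background of the comparison, and what follows describes single members.

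**Figure D1:**
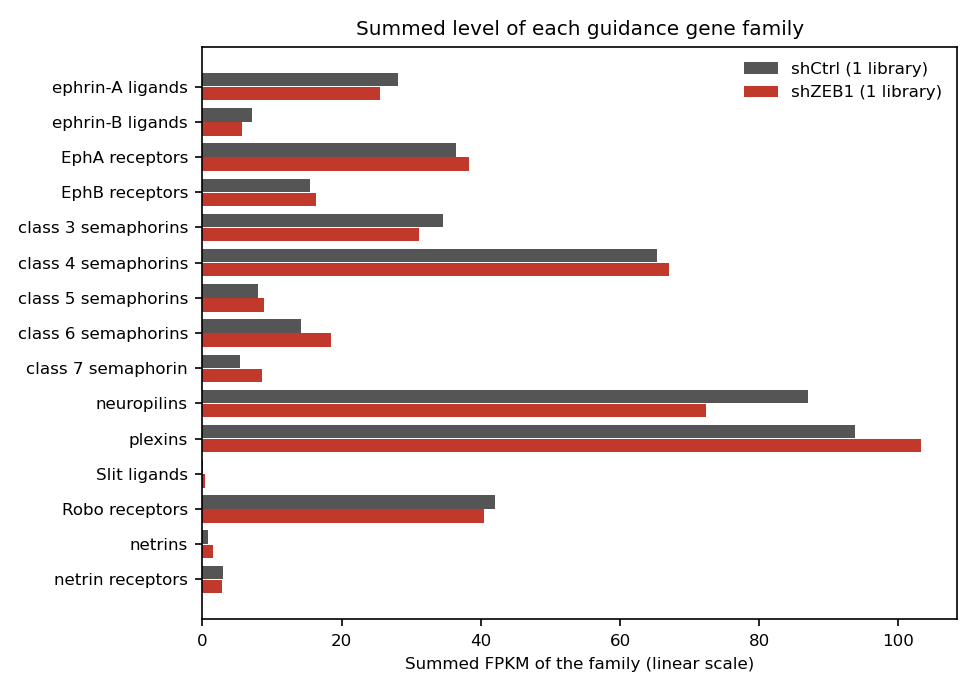
Summed FPKM (x axis, linear) of each family (y axis) in the shCtrl library (grey) and the shZEB1 library (red). Neuropilins went from 87.01 to 72.32 and plexins from 93.77 to 103.26, while Slit ligands summed to 0.07 and 0.43.

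A few genes carried much of the guidance RNA. NRP2, a co-receptor for class 3 semaphorins and for growth factors of the VEGF family, was highest in both libraries, at 81.9 and 68.7 FPKM. It made up 18.6% and 15.6% of the summed FPKM of all guidance genes and lay above 93.7% and 92.9% of all listed genes. SEMA4C, PLXNA1, PLXNB2 and ROBO1 followed in shCtrl, and together with NRP2 they made up 46.4% of the sum in shCtrl and 45.3% in shZEB1.

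**Figure D2:**
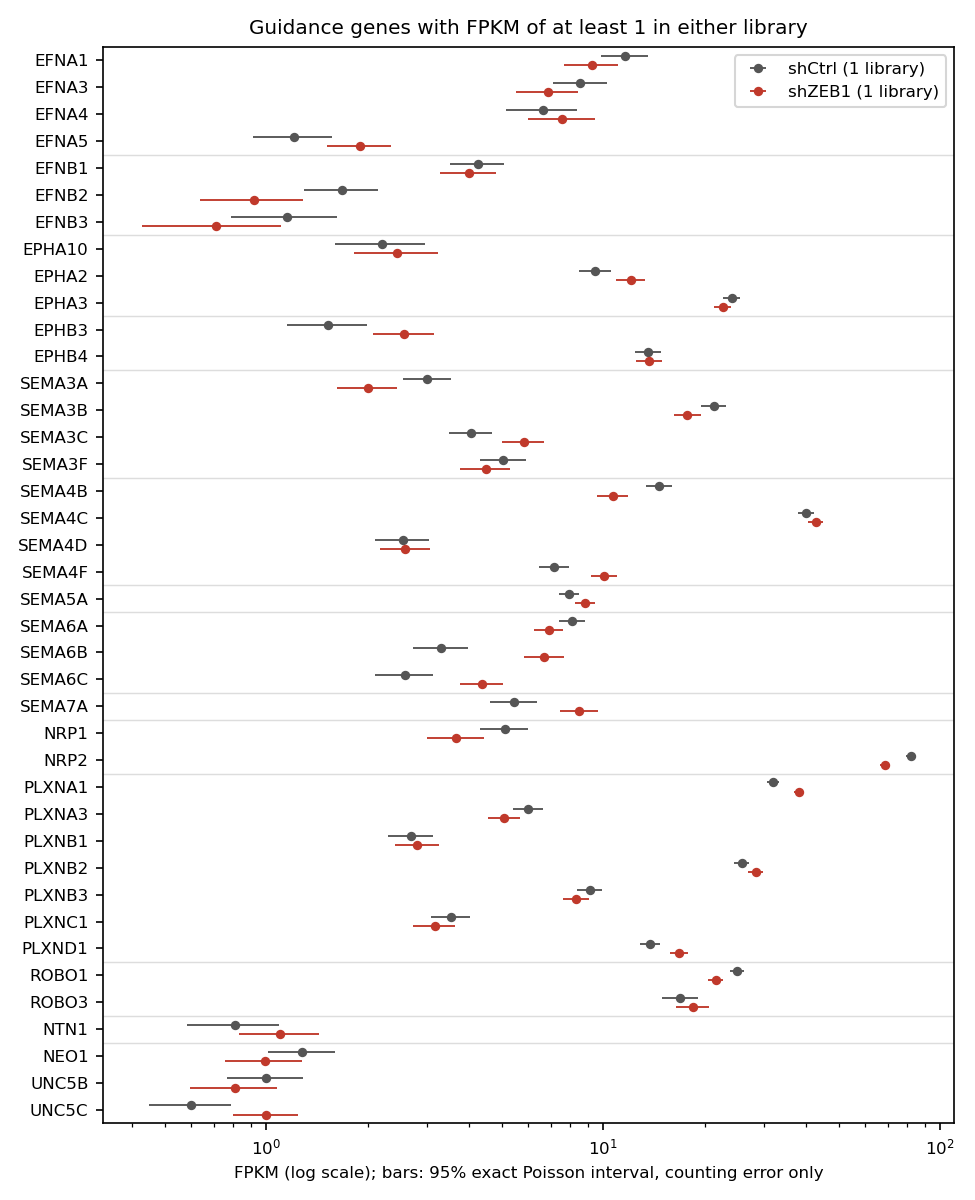
FPKM (x axis, log scale) of the 40 guidance genes that reached an FPKM of 1 in either library, with shCtrl in grey and shZEB1 in red. Bars are 95% exact Poisson intervals for counting error only, and lines separate the families. NRP2 lies farthest right, and pairs of bars that do not overlap occur in both directions, for example with shZEB1 above for SEMA6B, SEMA6C, SEMA7A and PLXNA1 and below for NRP2, ROBO1, SEMA4B, SEMA3A and EFNB2.

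Because ZEB1 is known to bind E-boxes, the letters CACCTG were searched on both strands (CAGGTG is the same site read from the other strand) in RefSeq promoter windows of GRCh38.p14, from 250 bases before to 50 bases after each start. A window was given for 60 of the 70 genes, and 10 of these (16.7%) held the letters, beside 20.6% of all 27305 windows. SEMA6B, SEMA3A, SEMA6A and NRP1, whose read intervals excluded 1, were among the genes without a window and were not searched. Among genes with an FPKM of at least 1, it was 5 of 32 guidance genes (15.6%) and 17.2% of 9546 genes in all. The windows of EFNB2 (read interval below 1) and SEMA4F (above 1) are shown because these 2 genes differ in opposite directions and both hold the letters. Those of SEMA3F and PLXNB3, whose intervals included 1, are shown beside them. Each stretch of 30 bases reads 5′ to 3′ on the strand of its gene, with the E-box in capitals.
EFNB2: aggggcggggctCACCTGtcagcccgagcc
SEMA4F: aactcccaccttCACCTGggtctagctccg
SEMA3F: ccggcccacggaCAGGTGgagcgggggcgg
PLXNB3: gctgccgtctctCACCTGccaggtgcccac
On GRCh38.p14 these lie at chr13:106535812-106535841 (minus strand), chr2:74654099-74654128 (plus), chr3:50154909-50154938 (plus) and chrX:153764051-153764080 (plus). The E-boxes begin 167, 136, 137 and 186 bases before the start. PLXNB3 held a second one on the opposite strand, 7 bases further on and within the stretch shown. Such a match is a stretch of letters and was not measured as binding.

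Among the ephrin ligands, the A class was more abundant than the B class. Ephrin-A ligands, which are held in the membrane by a lipid anchor, had a summed level of 28.03 FPKM in shCtrl and 25.57 in shZEB1. EFNA1, a ligand of EPHA2, was at 11.6 (155 reads) and 9.24 (120 reads), with an interval of 0.626 to 1.02. That interval excluded 1 on the lower side when reads were scaled by edgeR (0.603 to 0.986) or by DESeq2 (0.605 to 0.989). EFNA3 was at 8.56 and 6.86, and EFNA4 at 6.61 and 7.57. Their intervals included 1, and both genes overlap AL691442.1 on the same strand. Counting error did not separate EFNA1, EFNA3 and EFNA4 from the next in rank among them in either library. EFNA5, a ligand of EPHA3, was the only ephrin that was higher, at 1.21 (56 reads) and 1.90 (85 reads), with a read ratio of 1.57 (1.11 to 2.24).

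All 3 ephrin-B ligands, which cross the membrane, had a negative log2 ratio, and for 1 of them the interval excluded 1. This was EFNB2 (Entrez Gene 1948, chr13:106489745-106535662), a ligand of EPHB4 known as a marker of arteries. It had 1.68 FPKM in shCtrl (64 reads) and 0.92 in shZEB1 (34 reads). The level was 1.83-fold lower, with a read ratio of 0.550 (0.352 to 0.847). It overlaps the antisense locus AL138689.2, and the strand setting of the counting is not given in the sources used here. EFNB1 was at 4.24 and 3.99 and EFNB3 at 1.15 and 0.71, and their intervals included 1.

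Of the 14 Eph receptors, 5 reached an FPKM of 1: EPHA2, EPHA3, EPHA10, EPHB3 and EPHB4. EPHA3, a receptor for EFNA5, made up 66.1% of the EphA sum in shCtrl and 59.2% in shZEB1. The FPKM of this receptor was 24.1 (1207 reads) and 22.7 (1104 reads). The read interval, 0.872 to 1.03, included 1, but lay below 1 with edgeR scaling (0.840 to 0.990) and with DESeq2 scaling (0.842 to 0.993). EPHA2, the EFNA1 receptor that is abundant in many carcinomas, was higher, at 9.46 (324 reads) and 12.1 (400 reads), with a read ratio of 1.28 (1.10 to 1.48). EPHB4, the EFNB2 receptor, had nearly equal values of 13.6 and 13.7, with an interval of 0.889 to 1.14. Its log2 ratio was 0.01, and -0.04 with edgeR or DESeq2 scaling. Its exons overlap SLC12A9.

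EPHB3 (Entrez Gene 2049, chr3:184561785-184582408), known from the mouse for placing cells along intestinal crypts, had the largest log2 ratio among the Eph receptors, 0.50. It was 1.68-fold higher, at 1.53 (56 reads) and 2.57 (91 reads), with an interval of 1.19 to 2.39. EPHA10, which lacks kinase activity, was at 2.21 and 2.45 with an interval that included 1. EPHA5 lay just under an FPKM of 1, at 0.59 (33 reads) and 0.96 (68 reads). Its read ratio was 2.13 (1.39 to 3.34) while its FPKM ratio was 1.63, with a deposited gene length of 6469 in shCtrl and 8384 in shZEB1. The remaining listed receptors had at most 8 reads each, and the log2 ratios of the measured ones lay between -0.09 and 0.50.

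The semaphorins held the largest log2 ratios among the measured guidance genes. By read ratio, EFNB2 (0.550), EPHB3 (1.68) and UNC5C (1.65) differed by more than SEMA7A (1.58). Of 20 semaphorins 13 were measured, and the interval excluded 1 for 9, of which 6 were higher and 3 lower. In this comparison 49.3% of all genes passed in either direction (27.9% higher and 21.4% lower). With so few genes, nothing particular to the family is read from these counts. All listed semaphorins, measured or not, summed to 127.46 FPKM in shCtrl and 133.79 in shZEB1. The higher and lower ones were spread over several classes.

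Class 6 semaphorins, which cross the membrane and signal through class A plexins, had a summed FPKM of 14.21 in shCtrl and 18.41 in shZEB1. SEMA6B (Entrez Gene 10501, chr19:4542593-4559684) differed most of all guidance genes measured. It had 3.31 FPKM from 114 reads in shCtrl and 6.69 FPKM from 223 reads in shZEB1. The Poisson intervals of 2.73 to 3.98 and 5.84 to 7.63 did not overlap. This was a 2.02-fold higher level, with a read ratio of 2.03 (1.61 to 2.56) and a log2 ratio of 0.84. It stayed under the size rule with each alternative scaling and pseudocount (log2 ratio 0.91 to 0.99). SEMA6C (Entrez Gene 10500, chr1:151131685-151146631) was at 2.58 (104 reads) and 4.37 (183 reads), a 1.69-fold higher level with a read ratio of 1.82 (1.42 to 2.34). SEMA6A, the most abundant of the class in shCtrl and not separated from SEMA6B by counting error in shZEB1, lay the other way, at 8.08 (488 reads) and 6.90 (403 reads), with a read ratio of 0.855 (0.748 to 0.978). SEMA6A overlaps 2 antisense genes. SEMA6D had 10 and 17 reads.

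SEMA7A (Entrez Gene 8482, chr15:74409289-74433958), the only semaphorin with a lipid anchor and a ligand of PLXNC1, was also higher. It was at 5.45 (157 reads) in shCtrl and 8.50 (240 reads) in shZEB1, a 1.56-fold difference with a read ratio of 1.58 (1.29 to 1.95). Its receptor PLXNC1 was at 3.54 (226 reads) and 3.16 (195 reads), with an interval that included 1.

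Class 4 semaphorins cross the membrane and act mainly on class B plexins. SEMA4C, a ligand of PLXNB2, was the most abundant semaphorin in both libraries, with 31.5% and 31.9% of their summed FPKM. It was at 40.1 (1350 reads) and 42.7 (1497 reads), with a read ratio of 1.15 (1.07 to 1.24). SEMA4F was higher, at 7.16 (374 reads) and 10.1 (510 reads), with a read ratio of 1.41 (1.23 to 1.62). SEMA4B was lower, at 14.7 (481 reads) and 10.7 (339 reads), with a read ratio of 0.730 (0.633 to 0.840). The class therefore held differences in both directions beside a nearly level sum of 65.34 and 66.97. SEMA4D, the ligand of PLXNB1, had 116 and 134 reads and FPKM levels of 2.54 and 2.59 (a ratio of 1.02), with a deposited length 1.17 times greater in shZEB1. Its read interval, 0.926 to 1.55, included 1.

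Secreted class 3 semaphorins, which need neuropilins with the exception of SEMA3E, summed to 34.53 in shCtrl and 31.06 in shZEB1. SEMA3A, which repels axons through NRP1, was lower, at 3.01 (148 reads) and 2.00 (95 reads), with a read ratio of 0.665 (0.508 to 0.866). SEMA3B made up 61.7% and 57.2% of the class sum, at 21.3 (539 reads) and 17.8 (468 reads). Its interval of 0.793 to 1.02 included 1, but lay below 1 with edgeR scaling (0.763 to 0.981) and DESeq2 scaling (0.765 to 0.985). SEMA3F, an NRP2 ligand, was at 5.05 and 4.48, and its interval included 1. SEMA3C was at 4.05 and 5.81 in FPKM but had 182 and 197 reads, a read ratio of 1.12 with an interval (0.912 to 1.38) that included 1. Its deposited length was 5189 in shCtrl and 4063 in shZEB1, so most of the FPKM difference came with the length. SEMA3D, SEMA3E and SEMA3G had at most 28 reads in either library. SEMA5A, which carries thrombospondin repeats, was at 7.93 and 8.85, and its interval of 1.01 to 1.23 included 1 with edgeR scaling (0.976 to 1.18) and DESeq2 scaling (0.979 to 1.19).

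**Figure D3:**
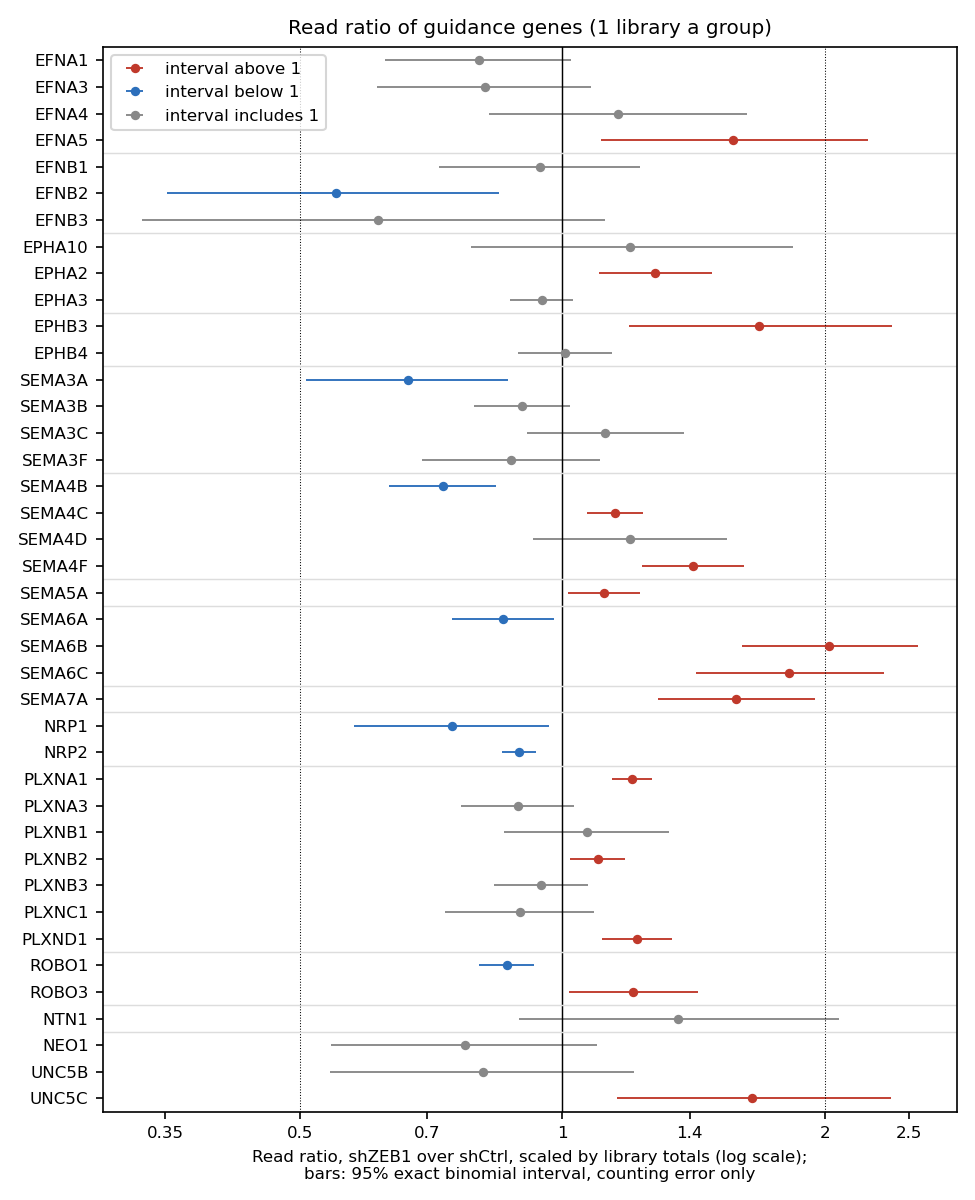
Read ratio of shZEB1 over shCtrl (x axis, log scale) for the same 40 guidance genes, with 95% exact binomial intervals for counting error only. Red intervals lie above 1 (14 genes), blue below 1 (7 genes) and grey include 1 (19 genes), and dotted lines mark ratios of 0.5 and 2. SEMA6B is the only gene whose ratio passes 2, and 3 red ones (ROBO3, SEMA5A and PLXNB2) include 1 under edgeR or DESeq2 scaling.

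Both neuropilins were lower in shZEB1. NRP2 (Entrez Gene 8828, chr2:205682501-205798131) had 3939 reads in shCtrl and 3393 in shZEB1, a read ratio of 0.892 (0.852 to 0.934). The FPKM ratio of NRP2 was further from 1, at 0.838. Its deposited length was 5549 in shCtrl and 5892 in shZEB1, so part of the FPKM difference came with the length. NRP1 (chr10:33177493-33334667) was at an FPKM of 5.10 (147 reads) and 3.67 (106 reads), with a read ratio of 0.747 (0.576 to 0.965). The NRP2 level was 16.1 times that of NRP1 in shCtrl and 18.7 times in shZEB1. Both genes overlap antisense loci. Their intervals remained below 1 under each scaling tried.

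Plexins, the signalling receptors of semaphorins, summed to more than the neuropilins, at 93.77 in shCtrl and 103.26 in shZEB1. Of 9 genes 7 were measured, 3 of them higher and none lower, with read ratios of at most 1.22. That is 42.9% of the measured plexins, no more than the 49.3% of all genes whose interval excluded 1 (27.9% higher), so the counts do not set the family apart. PLXNA1 (Entrez Gene 5361, chr3:126983115-127037389), which pairs with neuropilins, was at 32.0 (2558 reads) and 38.2 (2970 reads), with a read ratio of 1.20 (1.14 to 1.27). PLXND1, the receptor of SEMA3E, was at 13.8 (837 reads) and 16.8 (985 reads), with a read ratio of 1.22 (1.11 to 1.34). PLXNB2, the SEMA4C receptor, was at 25.8 and 28.4, and its interval of 1.02 to 1.18 included 1 with edgeR scaling (0.983 to 1.14) and DESeq2 scaling (0.986 to 1.14). Within their classes PLXNA1 took 82.3% and 87.2% of the class A sum, and PLXNB2 took 68.6% and 71.8% of the class B sum.

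For the other measured plexins the interval included 1 with reads scaled by library totals. PLXNA3 was at 5.99 and 5.08 with an interval of 0.766 to 1.03, which lay below 1 with edgeR scaling (0.737 to 0.993) and DESeq2 scaling (0.740 to 0.996). PLXNB3 was at 9.13 and 8.32 and PLXNB1, the SEMA4D receptor, at 2.69 and 2.81. PLXNA2, a receptor of SEMA6A, was under an FPKM of 1 and lower, with 86 and 49 reads and a read ratio of 0.590 (0.407 to 0.847). PLXNA4 had 2 and 3 reads. Exons of PLXNA3, PLXNB3 and PLXNC1 overlap those of LAGE3, SRPK3 and CEP83.

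Robo receptors were abundant while their Slit ligands were barely detected. The receptors summed to 42.06 FPKM in shCtrl and 40.40 in shZEB1, and ROBO1 and ROBO3 made up 99.5% and 99.0% of that. ROBO1 (Entrez Gene 6091, chr3:78597239-79767998), a Slit receptor, was lower, at 24.9 (1630 reads) and 21.6 (1360 reads), with a read ratio of 0.864 (0.803 to 0.929). ROBO3 (chr11:124865432-124881471), a divergent family member that does not bind Slits strongly in mammals, was at 16.9 (254 reads) and 18.5 (296 reads). Its interval of 1.02 to 1.43 included 1 with edgeR scaling (0.979 to 1.38) and DESeq2 scaling (0.982 to 1.38). The FPKM of ROBO3 rests on a deposited length of 1776 and 1951, against 4569 for its RefSeq transcript in GENCODE 29. It carried 8 transcripts assembled by the authors. The part of ROBO3 in the Robo sum and its level beside ROBO1 are therefore uncertain. In FPKM, counting error did not separate the pair in shZEB1, while ROBO1 had 6.42 times as many reads in shCtrl and 4.59 times as many in shZEB1.

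The Slits had few reads, and these were fewer in shCtrl. SLIT2 had 4 reads in shCtrl and 16 in shZEB1, an FPKM of 0.06 and 0.24 and a read ratio of 4.14 (1.34 to 17.0). SLIT1 had 1 and 13 reads, a ratio of 13.5 with a wide interval of 2.02 to 572, and shares exons with the read-through gene ARHGAP19-SLIT1. Both are given after their values were seen, and SLIT3 was in neither file. ROBO2 and ROBO4, the latter known from endothelium, had 2 and 7 and 6 and 10 reads, and their intervals included 1.

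Netrins and their receptors were scarce. NTN1, the founding netrin, had an FPKM of 0.81 (42 reads) and 1.10 (55 reads), with an interval of 0.891 to 2.08. NTN3 was not listed in shCtrl and had 6 reads in shZEB1, at least 2.07-fold higher when the unlisted library is set at 3 reads. That bound leaves out the counting error of the 6 reads, and the read interval, which has no upper limit, began at 1.22. DCC, the classical attractive receptor, was in neither file. A count of 0 there allows a level of up to 0.343 CPM (reads scaled to the library total) in shCtrl and 0.355 CPM in shZEB1, for counting error only. NEO1, the DCC relative that also binds repulsive guidance molecules, was at 1.28 (79 reads) and 0.99 (59 reads), with an interval of 0.542 to 1.10. Of the UNC5 receptors, which mediate repulsion, only UNC5B and UNC5C were listed. UNC5C was higher, at 0.60 (52 reads) and 1.00 (83 reads), with a read ratio of 1.65 (1.15 to 2.38), and it overlaps an antisense locus. UNC5B was at 1.00 (60 reads) and 0.81 (47 reads), and its interval included 1.

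Under an FPKM of 1 in both libraries lay 20 listed guidance genes. Without the minimum, the interval excluded 1 for 18 genes on the higher side and 8 on the lower, beside 22.6% and 16.8% of all 16085 listed genes and loci (39.4% in either direction). The 5 that this added were EPHA5, NTN3, SLIT1 and SLIT2 (higher) and PLXNA2 (lower). The other 15 of the 20 had at most 34 reads in a library, too few to show modest differences.

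**Figure D4:**
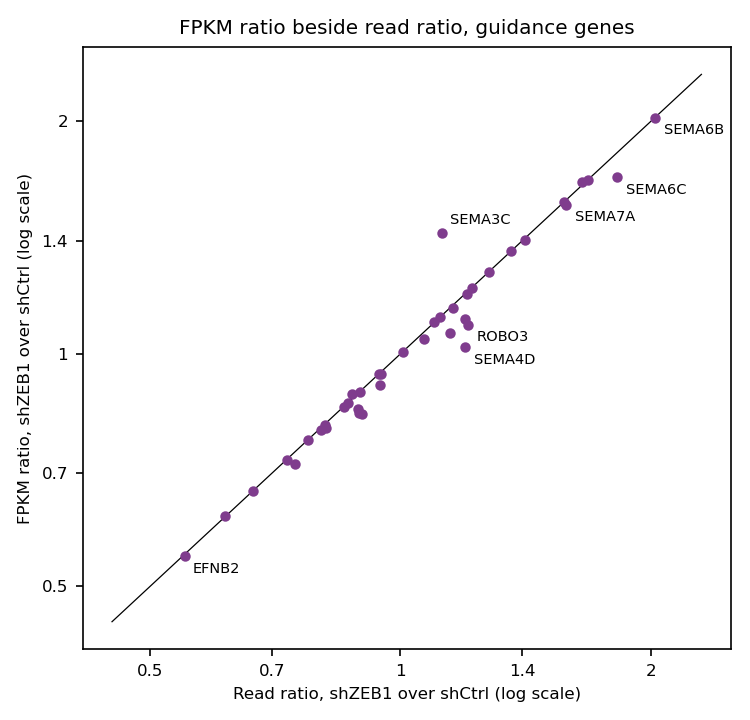
FPKM ratio (y axis, log scale) against read ratio (x axis, log scale), both shZEB1 over shCtrl, for the 40 guidance genes that reached an FPKM of 1. The line marks equal ratios, SEMA3C lies above it (FPKM ratio 1.43, read ratio 1.12) and SEMA4D below it (1.02 and 1.20), in each case with a difference in the deposited length.

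Counted reads were rarely shared out between gene models. For 56 of the 60 listed guidance genes the expected counts of both libraries were whole to the 2 decimals deposited. Among the 40 measured genes, 14 have exons that overlap another gene in GENCODE 29, and 2 (SEMA3C and SEMA4D) had a deposited length that differed by over 10% between the files.

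Of genes that act with these receptors, a list of 57 effectors inside the cell and 15 co-receptors, other ligands and proteases was examined. Of the 72, 57 were measured, and 1 of these met the size rule, on the lower side, beside 2.55% of all genes (1.61% lower). The interval excluded 1 for 15 on the higher and 17 on the lower side, 56.1% beside 49.3% of all genes. The median log2 ratio was 0.03. The one past the size rule was VEGFA, a neuropilin ligand as well as an angiogenic factor, at 35.8 in shCtrl and 14.9 in shZEB1 (log2 ratio -1.21), whose exons overlap AL136131.3. Among small GTPases on the list, RHOA, whose exons overlap TCTA, was at 306 and 312, RAC1 at 113 and 108 and CDC42 at 117 and 121. RAP1A was at 10.6 and 11.7, RND3 at 26.9 and 26.8 and RRAS at 22.95 and 19.95. RND1 had 21 and 14 reads and RND2 had 6 and 3. The intervals of all these genes included 1, and those of RND1 (0.325 to 1.42) and RND2 (0.0838 to 2.42) were wide.

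The other effectors and partners with the largest differences were kinases and adhesion proteins. ABL2, a tyrosine kinase downstream of guidance receptors, was lower, at 11.2 and 6.95 (read ratio interval 0.513 to 0.625). LIMK2, which phosphorylates cofilin, was lower, at 23.6 and 15.2 (0.588 to 0.743), while its paralog LIMK1 was at 37.6 and 47.3 (1.17 to 1.38). L1CAM, an adhesion molecule that joins NRP1 in the SEMA3A receptor, was at 76.2 and 53.3 (0.661 to 0.736). These 3 lower genes had log2 ratios between -0.62 and -0.51. ARHGAP35 was at 11.0 and 7.54, PTK2, the focal adhesion kinase, at 29.3 and 21.0, and DPYSL4, of the collapsin response mediator family, at 20.2 and 14.3, all lower. MET, a receptor tyrosine kinase that associates with class B plexins, was higher, at 0.76 (44 reads) and 1.47 (82 reads).

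**Figure D5:**
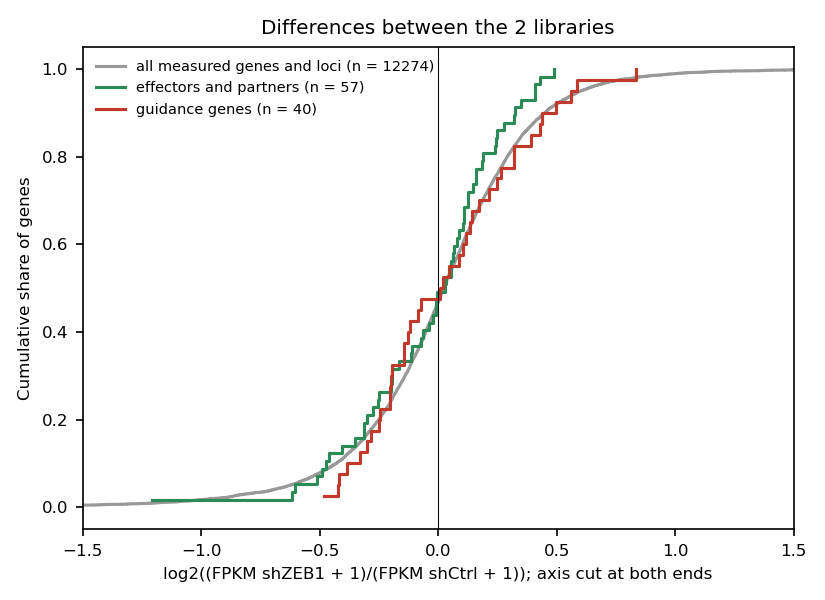
Cumulative share of genes (y axis) by log2((FPKM shZEB1 + 1)/(FPKM shCtrl + 1)) (x axis) for all 12274 measured genes and loci (grey), 57 effectors and partners (green) and 40 guidance genes (red). The guidance genes run from -0.48 (EFNB2) to 0.84 (SEMA6B) and cross 0 close to all genes, with medians of 0.01 and 0.02.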

How the data were processed

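RNA of 1 shCtrl and 1 shZEB1 library was analysed. Per the submitters' processing notes, the genome was hg38, the counter RSEM 1.2.8 and the aligners Bowtie2 2.2.5 and HISAT2 2.1.0, beside DESeq; how these were set is not given in the sources used here. For each library the authors deposited, per the file headers, an expected count (estimated reads) and an FPKM for each gene, and a mean transcript length (in bases, the other deposited value used). Genes missing from a file were entered at 0.

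Entrez identifiers were matched to RefSeq symbols of GRCh38.p14 (15183 of 15217). UNC5 was read as UNC5A to UNC5D. Members were taken by symbol, and effectors and partners were listed from knowledge of the pathways, both with earlier results of these data known. Intervals used expected counts rounded to whole numbers, and simulated data with known changes were used to test the size rule. PCR reads are not independent molecules, so intervals may be too narrow. No dispersion can be estimated from 1 library a group, so edgeR and DESeq2 gave scalings only. Named were ZEB1, members that reached 5 FPKM in either library or had an interval that excluded 1 with a log2 ratio of at least 0.3 in size, and the 8 effectors or partners with the largest ratios among those whose interval excluded 1; other names serve as examples. Alternatives were a pseudocount of 0.1, TPM, CPM, edgeR TMM, DESeq2 size factors, other minimums, a fold of 1.5, and leaving out genes with overlapping exons. Tools were Python 3.11.15, pandas 2.3.3, SciPy 1.17.1, R 4.3.3, edgeR 4.0.16 and DESeq2 1.42.0.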

Additional observations from a re-analysis of the deposited data

How the results depend on the processing

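None of the 40 measured guidance genes met the size rule under any scaling, pseudocount or minimum tried; with a fold of 1.5 in place of 2, SEMA6B and SEMA6C did (2 higher, 0 lower, beside 4.98% and 5.41% of all genes). With edgeR or DESeq2 scaling the read interval lay below 1 for 11 guidance genes in place of 7 and above 1 for 11 in place of 14. All genes shifted the same way, to 26.3% lower and 22.8% higher with edgeR and 25.9% and 23.3% with DESeq2, from 21.4% and 27.9%. The same 18 genes, 11 higher and 7 lower, kept their call under all 3 scalings. Without genes whose exons overlap another gene, 12 were higher and 3 lower of 26; the shares of all genes were not recomputed without such genes. Among effectors and partners, a fold of 1.5 gave 3 lower genes of 57 in place of 1 (VEGFA, ABL2 and LIMK2), beside 5.41% of all genes. Leaving out overlapping genes gave 0 by the size rule, because VEGFA was itself left out. By interval, 9 were then higher and 11 lower of the 33 genes that remained. DESeq2 gave each library a size factor of 1. Of 170 values for the 34 named guidance genes under 5 alternatives, 166 stayed within the counting error of the main value, and 2 changed sign (both EPHB4, whose log2 ratio was near 0). The 4 that moved further belonged to NRP2, SEMA4C and SEMA3C. Values of NTN3 are among the 166 but could not count as moved, because its read interval has no upper limit. The NTN3 log2 ratio was 0.45, and 2.23 with a pseudocount of 0.1. With CPM, which has no length term, the log2 ratio went from -0.25 to -0.16 for NRP2 and from 0.09 to 0.20 for SEMA4C. That of SEMA3C went from 0.43 to 0.10 with edgeR scaling and 0.11 with DESeq2 scaling. The ZEB1 log2 ratio ranged from -1.26 to -0.52. No paired analysis was possible because each group had 1 library. Depth limits the 20 listed genes under an FPKM of 1, most with under 30 reads.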

Other observations

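Some listed guidance genes lie next to each other within 1 Mb, and their log2 ratios are given as values. EFNA4, EFNA3 and EFNA1 lie side by side on chromosome 1, with log2 ratios of 0.17, -0.28 and -0.30. SEMA3F and SEMA3B, 71.2 kb apart on chromosome 3, had -0.14 and -0.25. ROBO3 and ROBO4, 2.22 kb apart on chromosome 11, had 0.12 and 0.15, though ROBO3 had 254 and 296 reads and ROBO4 6 and 10. PLXNB3 and PLXNA3 on the X chromosome had -0.12 and -0.20. ROBO2 and ROBO1 on chromosome 3 had 0.08 and -0.20, and SEMA3E, SEMA3A and SEMA3D on chromosome 7 had 0.02, -0.42 and 0.00. ROBO2, SEMA3E and SEMA3D had few reads.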
